A study of Rattus norvegicus with 4 samples.

Results

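Chromosome 9 of the rat held 10962 of the 228726 open chromatin regions of the series. They were all the open chromatin regions (OCRs) that the 4 deposited lists place on this chromosome, merged where OCRs of different libraries overlapped by at least 1 bp. Duplicate lines were to be dropped, and there were 0. The membership rule uses position alone, but the chromosome was picked with earlier results of these lists known, and the classes below rest on the comparison of the stages. Class counts are therefore given as descriptions, beside those of the other 19 numbered chromosomes, and carry no test.

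The study asked which stretches of chromatin change while retinal ganglion cells (RGCs) lose their capacity to grow axons. RGCs were immunopanned from the retinas of Sprague Dawley rats, with an anti-macrophage antibody to remove cells and an anti-Thy1 antibody to keep them, at embryonic day 21 (E21) and at postnatal day 11 (P11). No group carried a transgene, an injury or a drug treatment. Each stage had 2 libraries made by ATAC-seq, which cuts accessible DNA with a transposase, and per the study each library came from its own litter, so that a library pools animals. Retinas of the 2 stages were dissociated with different amounts of papain, and what this does to the lists cannot be told apart from age.

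RGCs are the output neurons of the retina, and their axons form the optic nerve. Open chromatin marks promoters, where transcription starts, and distal elements such as enhancers, which are the more changeable of these classes while a neuron matures. A region called at a single stage can be an element that closes or opens, or one that passes the caller's limit at that stage only. The lists are on Rnor_6.0 (rn6), per the labels. No sequence or annotation of that build was used here, so no region is tied to a gene, promoter or motif, and the RGC identity of the cells was not checked on marker genes.

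The lists held 125917 and 154394 OCRs in E21 replicates 1 and 2 and 154772 and 166702 in P11 replicates 1 and 2. Chromosome 9 contributed 5766, 7022, 7495 and 8235 of them in the same order. The genome-wide background pileup, which rises with depth and was recovered from the lists, was 4.80 and 5.03 fragments at E21 and 4.30 and 4.17 at P11. The P11 lists were thus the longer ones but had the lower background. An OCR had a summit pileup, the number of fragments over its highest point, of at least 14 at E21 and 13 at P11, so that weaker signals were not detectable at this depth.

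The share of a list that lay on chromosome 9 was higher at P11. It was 4.58% in E21 replicate 1 (95% Wilson interval 4.47 to 4.70%), 4.55% in E21 replicate 2 (4.45 to 4.65%), 4.84% in P11 replicate 1 (4.74 to 4.95%) and 4.94% in P11 replicate 2 (4.84 to 5.05%). The intervals cover counting error only and treat OCRs as independent. The stage means were 4.56 ± 0.022% and 4.89 ± 0.069% (SD, n = 2 each), a difference of 0.328 percentage points, which exceeded the SD of either stage. Neither E21 library reached either P11 library, and a two-sided exact permutation test gave p = 0.333, below which 2 libraries against 2 cannot go. Since the chromosome was picked with earlier results of these lists known, neither the gap nor the test is independent support for a stage difference. Over the numbered chromosomes only, the P11 share was 1.07 times the E21 share on chromosome 9, the second highest of 20, the other 19 running from 0.888 to 1.14.

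The size and strength of the OCRs were close to those on the other numbered chromosomes. At E21 the median OCR was 386 ± 12 bp wide and at P11 393 ± 2.83 bp (SD over 2 libraries, exact permutation p = 0.667). The median summit pileup was higher at E21, with 38 and 40 fragments against 30 and 31 at P11. On the other numbered chromosomes the E21 medians were 39 and 41, and those of P11 were 30 and 31. The median fold of an OCR over its local background, as the authors' lists give it, was 5.56 and 5.43 at E21 against 4.6 and 4.84 at P11 (exact permutation p = 0.333). The stages did not overlap in pileup or fold, on chromosome 9 or elsewhere.

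All 4 libraries had a call in 3848 of the 10962 regions (35.1%), and 3133 (28.6%) rested on a single library. Regions in both libraries of one stage and neither library of the other are called stage-specific here. There were 709 E21-specific regions, 6.47% of the regions of the chromosome, against 7.67% on the other numbered chromosomes. There were 1479 P11-specific regions, 13.5% against 12.5%. Of the 20 numbered chromosomes, chromosome 9 stood 3rd from the lowest in its share of E21-specific regions and 3rd from the highest in its share of P11-specific ones.

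Chromosome 9 thus had 2.09 P11-specific regions for each E21-specific one. On the other chromosomes this ratio had a median of 1.62 and ran from 1.03 on chromosome 10 to 3.04 on chromosome 17. The ratio within single pairs of an E21 and a P11 library, counted on OCRs of one list with no overlap in the other, ran from 1.20 to 2.92 on chromosome 9 (SD 0.746, 4 pairs that share libraries). The ratio depends on the lengths of the lists and on single libraries. Without E21 replicate 1, which has the shortest list, it was 1.06, from 1525 E21-specific and 1622 P11-specific regions, and without P11 replicate 1 it was 3.07, from 909 and 2792. With equal numbers of OCRs per library it fell to 1.27, with 813 E21-specific and 1029 P11-specific regions. Chromosome 9 was still 3rd of 20 by this setting, the others having a median of 0.955 and a range from 0.629 to 1.82. It was 3rd also without either E21 library or P11 replicate 1, and 2nd without P11 replicate 2.

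**Figure D1:**
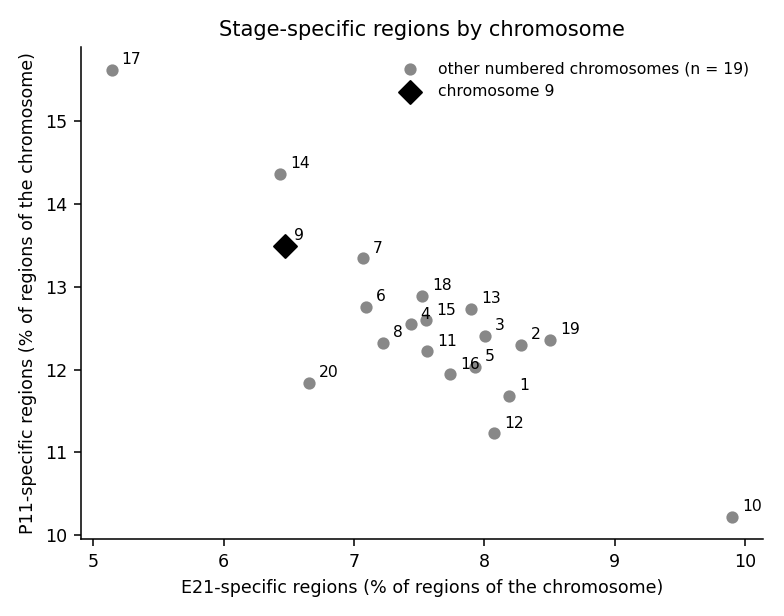
Each point is a numbered chromosome, with its E21-specific regions on the horizontal axis and its P11-specific regions on the vertical axis, both in % of the regions of that chromosome (2 libraries per stage). Chromosome 9, the black diamond, stands at 6.47% and 13.5%, on the side of chromosomes 14 and 17 and across from chromosome 10.

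Stage-specific regions were narrow and weak. Their class asks for no call at the other stage, so that lower strength than in shared regions follows in part from the definition. In E21-specific regions the median OCR width was 262 and 307 bp in E21 replicates 1 and 2, and in P11-specific regions it was 327 and 347 bp in P11 replicates 1 and 2. Regions called in all libraries had medians of 480 and 562 bp at E21 and 539 and 564 bp at P11. The median summit pileup was 28 and 31 fragments in E21-specific and 25 and 27 in P11-specific regions, and the highest was 173 and 121. Regions found in a single library were weaker still, with median pileups between 20 and 23 fragments.

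Within each list the OCRs were given a rank by −log10 q, as a percentile from 0 to 100. E21-specific regions had a median rank of 30.4 and 37.1 in the E21 lists, P11-specific regions one of 36.1 and 41.2 in the P11 lists, and shared regions one of at least 63.7 in every list. Only 6 E21-specific regions (0.846%) and 36 P11-specific regions (2.43%) reached the 75th percentile in both lists of their stage. On the other numbered chromosomes 1.03% and 3.34% did.

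The strongest E21-specific regions lay scattered over the chromosome. The one with the highest mean rank, chr9:119022244-119022840, had a pileup of 79 and 100 fragments and a fold of 12.5 and 15.2 in E21 replicates 1 and 2. The next, chr9:30357035-30357456, had 107 and 113 fragments, and its local background of 9.39 and 11 fragments was above that of the whole genome. The others were chr9:88987408-88988025 with 73 and 82 fragments, chr9:112997333-112997794 with 72 and 76, and chr9:90228116-90228661 with 58 and 78. Pileups of this size are 4 times the caller's minimum or more, and by the class the P11 lists held no OCR overlapping any of these places. Each lay from 2805 to 36680 bp from the nearest shared region.

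The 5 strongest P11-specific regions all lay in the first part of the chromosome. They were chr9:19527172-19528114 with 115 and 114 fragments in P11 replicates 1 and 2 over a local background of 13.7 and 13.9, chr9:22192120-22192879 with 60 and 85, and chr9:4480873-4481560 with 62 and 76. The last ones of the 5 were chr9:5483427-5484177 with 73 and 67 fragments and chr9:26701025-26702009 with 74 and 83. Of the 36 P11-specific regions at or above the 75th percentile 13 lay in the first 32 Mb of the chromosome, as did 1 of the 6 E21-specific ones. That stretch was itself picked for its P11-specific regions. Regardless of rank, it held 427 of all 1479 P11-specific and 118 of all 709 E21-specific regions of the chromosome. All 5 named here started before position 32000000, and their mean ranks ran from 89.5 to 93.6, above the 78.0 to 85.0 of the E21-specific ones. The second had the highest fold, 11.5 and 16.6, and stood alone, 56358 bp from the nearest shared region. The fourth of them was farther still, at 91996 bp.

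Most stage-specific regions lay nearer to shared open chromatin. The median distance to the nearest shared region was 8385 bp for E21-specific and 7057 bp for P11-specific regions of chromosome 9, and 8852 and 6678 bp on the other numbered chromosomes. Within 10 kb of a shared region lay 395 of the 709 E21-specific regions (55.7%) and 900 of the 1479 P11-specific ones (60.9%). The shares elsewhere were 53.6% and 62.4%, so that the order of the stages was the same on and off the chromosome.

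To follow the stages along the chromosome, regions were counted by their midpoints in consecutive 1 Mb windows. Chromosome 9 spans 123 windows with 8 to 206 regions each and a median of 92. P11-specific regions outnumbered E21-specific ones in 101 windows (82.1%), E21-specific regions were the more numerous in 18 (14.6%), and the numbers were equal in 4. On the other numbered chromosomes these shares were 64.8% and 27.2%.

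The first 32 windows, up to position 32000000, all had more P11-specific than E21-specific regions. This run was picked after its values were seen. It was the second longest of the 20 numbered chromosomes, after one of 33 windows on chromosome 17, and the longest run on any other chromosome had 26. It held 2809 regions, of which 118 (4.20%) were E21-specific and 427 (15.2%) were P11-specific. The rest of the chromosome had 7.25% and 12.9%, with a ratio of 1.78 against 3.62 in the run. With lists of equal length 133 of the 2300 regions of the run were E21-specific and 296 were P11-specific, a setting added after the data were seen. Over the whole chromosome the shares in this setting were 9.14% and 11.6%. When each library was left out, the counts were 255 and 479 without E21 replicate 1 and 160 and 806 without P11 replicate 1, so that P11-specific regions prevailed in each case (213 and 599 without E21 replicate 2, 198 and 654 without P11 replicate 2).

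In fixed blocks of 10 Mb the first 3 had the lowest shares of E21-specific regions on the chromosome. In block 1, 19 of 674 regions (2.82%) were E21-specific and 107 (15.9%) were P11-specific. In the deposited lists none of the 256 blocks of the other numbered chromosomes with at least 100 regions had a share of E21-specific regions as low, their lowest being 3.42% and their median 7.67%. This place depended on single libraries. Without E21 replicate 2 the block had 51 E21-specific regions of 655 (7.79%), 17 of the 256 blocks were at or below that share, and block 3, with 47 of 680, was lower too. Without E21 replicate 1 it had 44 of 647 (6.80%) with 2 blocks at or below, without P11 replicate 1 it had 30 of 633 (4.74%) with 1, and without P11 replicate 2 it had 32 of 565 (5.66%) with 1. Its share of P11-specific regions was lower than the 95th percentile of those blocks, 16.1%. Blocks 2 and 3 had 4.24% and 4.73% E21-specific and 14.1% and 17.4% P11-specific regions. Block 6 had the highest P11-specific share, 17.6%.

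In block 8 the classes were nearly equal in number, with 84 E21-specific and 79 P11-specific regions (9.94% and 9.35%), and their order was not stable. E21-specific regions were the more numerous with equal numbers of OCRs (99 and 57) and without E21 replicate 1 (158 and 86). P11-specific regions were the more numerous without E21 replicate 2 (112 and 130), without P11 replicate 1 (107 and 196) and without P11 replicate 2 (119 and 130). The incomplete last block had 15 E21-specific and 8 P11-specific regions among 89, but 15 and 18 without P11 replicate 1. In the other blocks P11-specific regions were the more numerous, from 1.54 times in block 4 to 5.63 times in block 1. With equal numbers of OCRs the order turned to E21-specific in block 4 (62 and 52), block 9 (97 and 85) and block 11 (40 and 29), while block 1 had 14 and 70. Without E21 replicate 1 it turned in these 3 blocks and also in block 5 (165 and 154) and block 12 (217 and 191). In shared regions of block 1 the median local background was 1.15 and 1.13 times the genome-wide background in the E21 libraries and 1.44 and 1.65 times in the P11 libraries, and in block 8 it was 1.10 and 1.25 times at E21 and 1.13 and 1.23 times at P11. Its part in the counts was not tested.

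**Figure D2:**
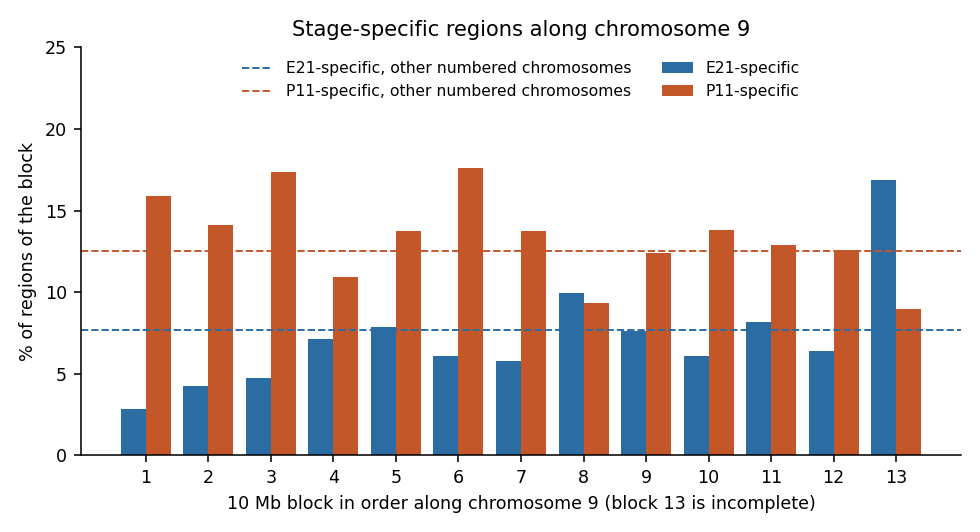
Bars give the E21-specific and P11-specific regions of each 10 Mb block of chromosome 9, in order along the chromosome, in % of the regions of the block. Dashed lines are the shares over the other numbered chromosomes, 7.67% and 12.5%. Block 1 has the lowest E21-specific bar, at 2.82%, and only blocks 8 and 13 have a higher E21-specific than P11-specific bar.

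The window with the highest share of P11-specific regions was window 5, chr9:4000001-5000000. It held 24 P11-specific and 0 E21-specific regions among 83. The lists had 19 and 21 OCRs there at E21 against 60 and 70 at P11, so that the stages were far apart and the replicates of a stage close together. Of its 14 shared regions 7 ranked higher at P11 by the criterion defined for ranks further on, and the median local background of the OCRs in it was at the genome-wide level in every library. Of the 2487 windows of the other numbered chromosomes, 146 had 24 or more P11-specific regions and 2 of these had no E21-specific one. With equal numbers of OCRs the window had 12 P11-specific and 0 E21-specific regions, and it had at most 1 E21-specific region when any library was left out.

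Window 5 belongs to a longer stretch. From chr9:3300707 to 5224602 there were 38 P11-specific regions with no E21-specific region between them, the second longest such row on a numbered chromosome after 41 on chromosome 17. The stretch held 141 regions, of which 39 and 50 were called in E21 replicates 1 and 2 and 101 and 119 in P11 replicates 1 and 2. Its P11-specific regions were mostly faint, with median pileups of 23.5 and 24 fragments and highest ones of 62 and 76. Shared regions in it had a local background at the genome-wide level in both E21 libraries and at 1.52 and 1.73 times that level in the P11 libraries.

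Other windows rich in P11-specific regions were window 99 (chr9:98000001-99000000) with 34, window 55 (chr9:54000001-55000000) with 30, window 119 (chr9:118000001-119000000) with 28, and windows 11 and 81 with 26 each. The E21-specific regions in them numbered 7, 5, 7, 9 and 4. A row of 17 P11-specific regions began in window 119 at position 118699297 and ran 309287 bp into the next window, with 11 shared regions between them. By share, among windows with at least 20 regions, window 4 followed window 5 with 25.7%, and windows 25 and 119 were tied at 25.5%.

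E21-specific regions were most numerous in window 111 (19), window 46 (18), window 50 (15), window 100 (15) and window 72 (14). These are dense windows with 101 to 206 regions, and in the same order they held 19, 22, 18, 12 and 11 P11-specific regions. Among windows with at least 20 regions the first by share was window 76 (chr9:75000001-76000000), where 12 of 38 regions (31.6%) were E21-specific and 2 were P11-specific. It had 28 and 31 OCRs at E21 against 17 and 23 at P11. Windows 122 and 91 followed with 22.5% and 21.3%. Below that limit, window 57 had 7 of 16 regions (43.8%), window 109 had 4 of 17 (23.5%) and window 34 had 3 of 14 (21.4%), named after their values were seen. These are sparse windows, in which few regions make a large share.

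The E21-specific regions of windows 46 and 50 were packed closely. In window 46, 11 of them lay between positions 45102596 and 45214466, and in window 50, 9 lay between 49398944 and 49526521, with no P11-specific region between them. In the first of these stretches the E21 libraries had 20 and 21 regions and the P11 libraries 7 and 9. In the second they had 11 and 12 at E21 against 1 and 6 at P11, and none of its 18 regions was shared by all libraries. A row of 21 P11-specific regions, the second longest of that kind on the chromosome, began at 45725105, 510638 bp after the end of the stretch in window 46.

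The profile along the chromosome was also compared between disjoint pairs of libraries. For each window with at least 10 OCRs in every library, the log2 ratio of OCRs at P11 to OCRs at E21 was taken between replicates 1 and, separately, between replicates 2. Across 115 windows, which are not independent samples and differ in the density of OCRs, Pearson's r between the ratios was 0.64 and Spearman's rho 0.55. With the numbers crossed, r was 0.54 and rho 0.46. In the first 32 windows, which were picked on calls from these same lists, the P11 library had more OCRs in 30 windows for replicates 1 and in 32 for replicates 2, with medians of 0.43 and 0.42 on the log2 scale. In the 83 later windows it had more in 69 and 61, with medians of 0.39 and 0.20. An excess of P11 OCRs in the first windows follows in large part from that choice and is given as a description.

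**Figure D3:**
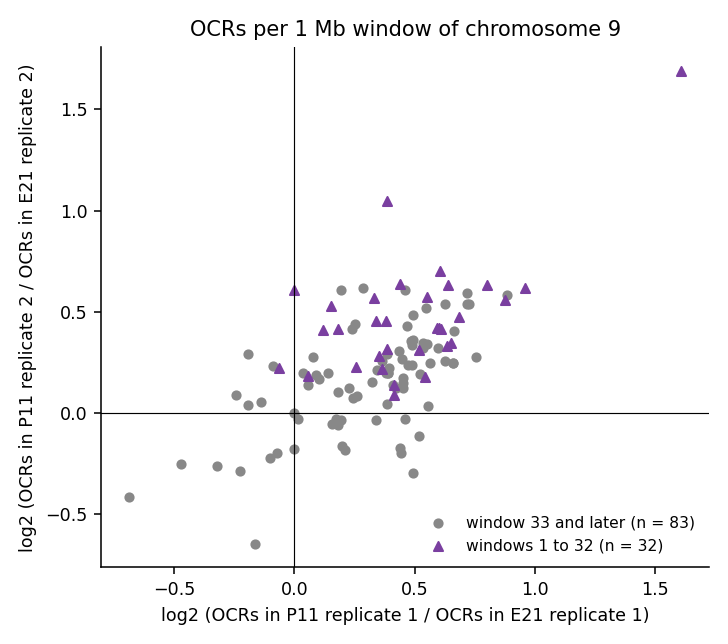
Each point is a 1 Mb window of chromosome 9 with at least 10 OCRs in every library, and the axes give the log2 ratio of the number of OCRs at P11 to that at E21, for replicates 1 (horizontal) and replicates 2 (vertical). Purple triangles are windows 1 to 32, and the triangle at the upper right is window 5, with 60 and 70 OCRs at P11 against 19 and 21 at E21.

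A call says nothing of how open a region was, and the 3848 shared regions were therefore compared by rank. Across these regions Spearman's rho of the ranks was 0.90 between the E21 libraries, 0.87 between the P11 libraries and from 0.63 to 0.66 between stages. These points are regions of the same libraries and are no replicates. In 1443 shared regions (37.5%) both P11 libraries ranked the region above both E21 libraries, and in 894 (23.2%) the reverse held. On the other numbered chromosomes the shares were 32.7% and 27%.

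A region was called rank-shifted if the stages did not overlap and their mean ranks differed by at least 25 percentile points. By this criterion 513 shared regions of chromosome 9 (13.3%) ranked higher at P11, against 12.2% elsewhere, and 280 (7.28%) ranked higher at E21, against 8.7%. The share ranked higher at E21 was the second lowest of the 20 chromosomes. The one ranked higher at P11 was 5th from the highest. These percentiles were taken within whole lists, and both P11 lists were longer than both E21 lists. After every list was cut to its 125917 best OCRs, 3284 regions of chromosome 9 were shared. Of these, 368 had the higher rank at P11 and 299 at E21, a smaller gap than with the whole lists. Ranks among the shared regions of the chromosome only gave 449 at P11 and 454 at E21. Such ranks have the same mean at both stages by construction, which alone does not fix these counts. Its part in the near balance was not tested. The first 32 windows held 154 regions ranked higher at P11 (15.3% of their shared regions) and 49 ranked higher at E21 (4.86%), and the later windows held 12.6% and 8.14%.

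Just inside the limit at E21 was chr9:85417895-85418146, with ranks of 78.3 and 76.6 at E21 and 71.7 and 33.1 at P11. Just outside it was chr9:47092295-47093140, with 68.4 and 69.0 against 19.3 and 68.2. At P11 the region just inside was chr9:92077602-92078391, with 45 and 34.9 against 14.8 and 15 at E21, and the one just outside was chr9:26687281-26688132, with 78.4 and 77.9 against 35.8 and 70.5. In 3 of these 4 regions one library decided the call, since the libraries of a stage lay over 30 points apart.

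**Figure D4:**
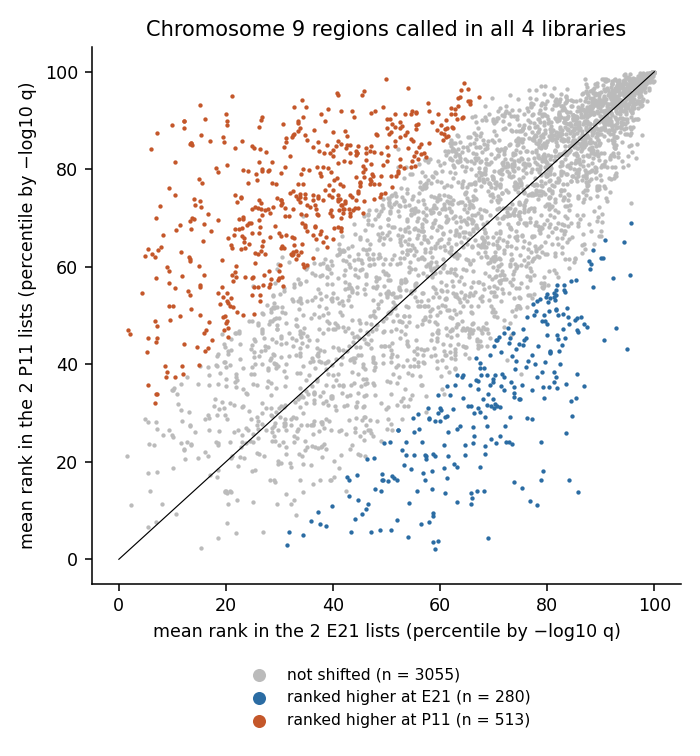
Each point is one of the 3848 chromosome 9 regions called in all libraries, placed by its mean rank in the E21 lists (horizontal) and in the P11 lists (vertical), both in percentiles. Blue points are the 280 regions ranked higher at E21 and orange points the 513 ranked higher at P11. Regions of the highest ranks lie close to the diagonal.

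The shared regions with the largest shift towards E21 had pileups of 46 to 97 fragments in the E21 libraries and of 13 to 27 in the P11 libraries. The first was chr9:81507720-81508413, with 89 and 90 fragments at E21 and 17 and 19 at P11. It ranked at 85.3 and 86.1 in the E21 lists and at 9.09 and 18.5 in the P11 lists, a mean difference of 72.0 points. Then came chr9:108380477-108381363, with 97 and 76 fragments at E21 against 17 and 20 at P11. It was the single shared region of window 109, whose 17 regions included 4 E21-specific and 2 P11-specific ones.

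The third, chr9:45260859-45261448, had 88 and 93 fragments at E21 against 19 and 20 at P11, and lay 46392 bp beyond the close row of 11 E21-specific regions in window 46. The last ones of the 5 were chr9:38690382-38690945 (77 and 78 fragments against 23 and 27) and chr9:114836666-114837593 (61 and 46 against 13 and 17). At P11 the OCRs in these regions were also narrower in every library, from 182 to 497 bp, than at E21, from 532 to 887 bp. The regions were picked for a separation in rank, and the separation in pileup comes from the same statistics of the caller.

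In the other direction the shifts were larger. The first region, chr9:55025526-55026282, had 20 and 18 fragments at E21 and 56 and 67 at P11, with ranks of 10.2 and 3.96 against 85.4 and 89.7. The second, chr9:92031847-92033282, had 19 and 21 fragments at E21 and 84 and 71 at P11, and its OCR widened from 150 and 191 bp to 1413 and 925 bp. The third, chr9:18168097-18168971, had 17 and 20 fragments at E21 and 53 and 56 at P11. The last ones of the 5 were chr9:50498886-50499920 (19 and 24 against 79 and 82) and chr9:10168300-10169375 (18 and 23 against 75 and 73). Their P11 pileups were the higher ones although the P11 libraries were ones with the lower background, and in the E21 lists they ranked at or below 23.3.

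**Figure D5:**
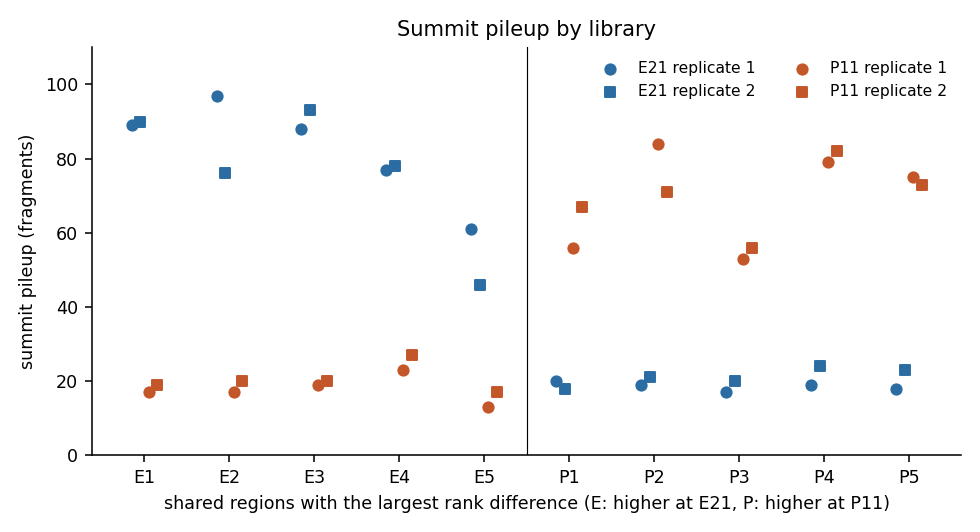
Summit pileup, in fragments, in each library for the 10 shared chromosome 9 regions with the largest rank differences, E1 to E5 ranked higher at E21 and P1 to P5 ranked higher at P11, in the order of the text. Blue is E21 and orange P11, circles are replicate 1 and squares replicate 2. The lower stage lies between 13 and 27 fragments in all 10 regions and the higher stage between 46 and 97.

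The strongest shared regions of chromosome 9 were picked by their mean rank over all libraries, so that a high rank at both stages follows from that choice. Of the shared regions 393 (10.2%) ranked at or above the 90th percentile in all lists, against 10.8% elsewhere. The top region was chr9:8282657-8283499, with 1730 and 1943 fragments at E21 and 1399 and 1749 at P11. A neighbour, chr9:8281425-8282179, and a region at chr9:8376303-8377549 were also among the first 5, with 1173 and 1125 fragments in E21 replicate 1. All 3 lay over a local background of 94.4 to 128 fragments, more than 20 times the genome-wide level in every library.

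The next regions by mean rank were sharper. The region chr9:12093712-12094352 rose to 888, 1159, 926 and 1077 fragments in E21 replicates 1 and 2 and P11 replicates 1 and 2, with folds from 24 to 25.7. The region chr9:10733773-10734685 had 1194 and 990 fragments at E21 and 587 and 566 at P11, so that both P11 pileups were below both E21 pileups while its rank stayed at or above 99.97 in each list. The ranks of the strongest regions are compressed at the top and carry little of such differences. In all, 25 regions of the chromosome had a local background of at least 10 times the genome-wide level in some library, 7 of them in window 9, and 1 of the 25 was stage-specific.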

How the data were processed

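The authors deposited 1 narrowPeak list of OCRs per library, made with their ATAC-seq Integrative Analysis Package. The submitters' processing notes name MACS2, Rnor_6.0 and rn6, and versions are not given in the sources used here. In the deposited lists each OCR has a score (not used), a fold over local background, −log10 of the p-value and of the q-value, and a summit offset, with no reads per region in any other library. The lowest −log10 q was between 2.01 and 2.02 in each list.

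The summit pileup and local background of each OCR were solved from the fold and −log10 p, under the caller's Poisson model with 1 added to pileup and background, and came out within 0.02 of a whole number for 100% of OCRs. The 4 lists were merged at an overlap of at least 1 bp, and each region carried the best OCR of each library, ranked by −log10 q within its whole list. A region counted in 1 window of 1 Mb and 1 block of 10 Mb. Library values were compared by exact two-sided permutation tests over 2 against 2 libraries, in which p cannot fall below 0.333. No p-value was computed over regions. The scripts were tested on simulated data.

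Named were the 5 regions of highest mean rank in each stage-specific class and among shared regions, the 5 with the largest rank difference in each direction, the regions next to the limit of 25 points, the 5 windows with the most regions of each stage-specific class and the 3 of highest share with at least 20 regions. The run of 32 windows, the stretches, the other 10 Mb blocks and the settings applied to windows and blocks were chosen after values were seen. The chromosome, the classes and these rules were chosen with earlier results of these data known. A gene list, cell type markers, promoters and motifs had been planned and were not used here, because the annotation at hand was of GRCr8. Alternatives were a limit of 5 on −log10 q, a limit of 4 on the fold, equal numbers of OCRs per library, an overlap of 100 bp, other rank limits and scales, shifted windows, each library left out, and a replicate block. Python 3.11.15, numpy 2.4.6, pandas 2.3.3, scipy 1.17.1 and matplotlib 3.10.9 were used.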

Additional observations from a re-analysis of the deposited data

How the results depend on the processing

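P11-specific regions outnumbered E21-specific ones on chromosome 9 under every alternative run, with a ratio from 1.06 to 3.07 against 2.09. The ratio was 1.27 when every list was held to its 125917 best OCRs, the length of the shortest, and with a fold of at least 4 the P11-specific regions numbered 929 and the regions ranked higher at P11 298, as fewer OCRs enter. A −log10 q of at least 5 gave 709 and 1206 stage-specific regions, and an overlap of 100 bp gave 706 and 1450. Leaving out each library, which by construction asks for 1 call where 2 were needed, gave 909 to 1525 E21-specific regions (most without E21 replicate 1), 1622 to 2792 P11-specific regions (most without P11 replicate 1, and 2310 without P11 replicate 2), ratios of 1.06 to 3.07, 243 to 447 regions ranked higher at E21 (most without P11 replicate 2) and 555 to 811 ranked higher at P11 (most without E21 replicate 2). The difference in the share of OCRs on the chromosome stayed between 0.253 and 0.376 percentage points over the alternatives. Rank differences of at least 10 points gave 628 such regions at E21 and 1028 at P11, and of at least 40 points 81 and 216. With ranks among shared regions there were 454 of them at E21 and 449 at P11. The part of the centring of such ranks in this near balance was not tested. Windows shifted along the chromosome had at most 21 E21-specific and 33 P11-specific regions, against 19 and 34. With a replicate block, pairing libraries of the same number, the ratio was 1.89. The numbers were not taken to pair the samples. Over 3848 shared regions the replicate differences of the stages correlated at 0.0714. These are regions of the same libraries, so the value cannot settle whether libraries of the same number were prepared together. With 2 libraries per stage, and lists that keep only OCRs past the caller's limit, a region absent from a list can hold signal just under that limit.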

Other observations

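The regions of chromosome 9 with very high local background lay in a few places. Of the 25 regions with at least 10 times the genome-wide background in some library, 7 lay in window 9 between positions 8281425 and 8605052, 6 of them called in all libraries, and 6 lay in window 11. These places were chosen after their values were seen.

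Regions called in 3 of the 4 libraries were unevenly spread over the libraries. On chromosome 9, 692 regions (6.31%) were called in E21 replicate 2 and both P11 libraries but not in E21 replicate 1, and 143 (1.30%) in E21 replicate 1 and both P11 libraries but not in E21 replicate 2. On the other numbered chromosomes these shares were 5.82% and 0.944%. Regions lacking a single P11 library were fewer than the first of these groups. There were 324 (2.96%) called everywhere but in P11 replicate 1 and 193 (1.76%) everywhere but in P11 replicate 2. On the other numbered chromosomes these 2 shares were higher, at 3.56% and 2.18%.

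Stage-specific regions had neighbours of their own kind to unequal degrees. Of the stage-specific regions next to a P11-specific one, on either side, an average of 71.2% were P11-specific too on chromosome 9. On the other numbered chromosomes this share was 67.2%, and for E21-specific regions the shares were 40.1% and 46.7%. Such a share is by construction higher for the more numerous class. There were 1479 P11-specific and 709 E21-specific regions on chromosome 9 and 26624 and 16393 elsewhere, and the shares are not adjusted for this. Rows of E21-specific regions were correspondingly short. The longest held 12 regions, eleventh among the 20 numbered chromosomes, and lay between positions 120467027 and 121839905. In it 30 and 37 regions were called at E21 against 20 and 25 at P11, and its 15 shared regions had a median rank 3.46 points higher at P11.

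The longest run of windows with more E21-specific than P11-specific regions on chromosome 9 had 5 windows, from position 71000001 to 76000000. It was 7th by length among the 20 numbered chromosomes, some of them tied, where the longest such run had 9 windows. It held 363 regions, of which 48 were E21-specific (13.2%) and 23 P11-specific (6.34%), against 7.67% and 12.5% on the other numbered chromosomes. The run was picked by these classes, and the shares are a description. Of its 114 shared regions 11 were rank-shifted towards E21 and 13 towards P11. On the other numbered chromosomes 8.7% and 12.2% of shared regions were. Shorter runs of more than 1 window lay from 56000001 to 59000000, with 11 E21-specific and 2 P11-specific regions among 42, from 120000001 to 122000000, with 15 and 8 among 81, from 107000001 to 109000000, with 8 and 4 among 39, and from 32000001 to 34000000, with 5 and 1 among 45.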
